A study of Mus musculus with 4 samples.

Results

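The Hedgehog ligand Shh, its receptors and its effectors were described in 2 structures cut by laser from sections of the fetal mouse kidney. The set held 9 genes (Shh, Ptch1, Smo, Gli1, Gli2, Gli3, Hhip, Boc and Gas1), read by all 24 probe sets of the array that the platform table pairs with 1 of these symbols, out of 45101 probe sets and 18193 genes with a symbol of their own. The set was selected on the signal of Shh, which was much brighter in the collecting duct than in the anlage of the loop of Henle, so this contrast is given for its members as a description, with no test.

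All 4 arrays held RNA from wild-type fetuses of the outbred CD-1 stock, of unknown sex, at E15.5 (E counts embryonic days, here Theiler stage 23). For the cortical collecting duct, the cortex part of the urine-collecting tree that the ureteric bud forms, there was 1 array, numbered 3 and called the duct array here. The anlage of the loop of Henle, a nephron segment that grows from the other, mesenchymal lineage of the kidney, was represented by 3 arrays, numbered 1 to 3. Each array stood for a pool of about 50 sections from 5 kidneys, with RNA amplified over 2 rounds, and the labels do not say whether pools shared kidneys or litters, so the spread between arrays may be partly technical.

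Hedgehog ligands are secreted proteins that bind the receptor Ptch1 on neighbouring cells. Free Ptch1 holds the membrane protein Smo inactive, and ligand binding releases Smo, which at the primary cilium turns the Gli transcription factors from repressors into activators. Gli1, Ptch1 and Hhip are themselves transcribed in response, so their level is widely used as a readout of the pathway. In the fetal kidney and ureter Shh is known as a signal from the ureteric epithelium to the mesenchyme around it, and too much Gli3 repressor is known to disturb kidney formation.

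For the promoters of the pathway's own target genes the RefSeq sequence could be shown for Ptch1 and Hhip, whose values are described further on. Each stretch holds the 250 bases before the transcript start, read 5′ to 3′ on the gene's strand (assembly GRCm38.p6). Capitals mark GC boxes (GGGCGG, or CCGCCC on the opposite strand), the binding sequence of Sp1-type factors.
Ptch1 (chr13:63565736-63565985, minus strand): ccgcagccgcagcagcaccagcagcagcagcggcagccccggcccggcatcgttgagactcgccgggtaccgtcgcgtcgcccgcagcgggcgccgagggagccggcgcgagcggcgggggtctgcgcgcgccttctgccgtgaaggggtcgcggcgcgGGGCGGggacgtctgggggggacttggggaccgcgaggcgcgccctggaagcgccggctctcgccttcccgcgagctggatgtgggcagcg
Hhip (chr8:80058009-80058258, minus strand): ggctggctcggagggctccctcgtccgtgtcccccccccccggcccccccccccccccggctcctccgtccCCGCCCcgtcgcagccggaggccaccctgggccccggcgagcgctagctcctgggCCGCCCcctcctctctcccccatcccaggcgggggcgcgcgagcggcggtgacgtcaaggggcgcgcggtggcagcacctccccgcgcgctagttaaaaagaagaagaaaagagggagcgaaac
The Ptch1 stretch held 1 GC box and the Hhip stretch 2, and 5 of the 6 members with a promoter in the table held at least 1, against 35.4% of 27025 genes. The 9-base Gli consensus GACCACCCA, or TGGGTGGTC on the opposite strand, was found in 0 of these 6 members and in 0.255% of all genes, and no match says only that these letters are not in the window.

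The ligand was the member that stood apart. In the brightest Shh probe set (1436869_at) the normalized signal was 18720 in the duct array, and in anlage arrays 1, 2 and 3 it was 352.9, 3621 and 271.5. On the log2 scale used throughout, log2(normalized signal + 109.6), these are 14.20 against 8.85, 11.87 and 8.57. The duct array lay above all 3 anlage arrays, and anlage array 2 stood well above the other anlage arrays. The difference from the anlage mean of 9.76 ± 1.82 (SD, n = 3) was 4.44 ± 1.31 (SE from limma), a 21.7-fold higher level, and it ranked 1st, counted from the highest, among the 12642 genes tested. Leaving out anlage array 2 made it 5.21, and leaving out anlage array 3 made it 3.80. Fewer cells of a type and less RNA per cell cannot be told apart in such samples.

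The other Shh probe set (1427571_at) did not show this. It stood at 7.92 in the duct array and at 7.77, 7.84 and 7.19 in anlage arrays 1, 2 and 3, a difference of 0.32. All 4 values were less than 8.416. This level, at the 40th percentile of mean values on the array, is called the dim level here. Where in the Shh transcript each probe set lies is not given in the sources used here. The account of Shh therefore rests on 1 probe set and 1 duct array.

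**Figure D1:**
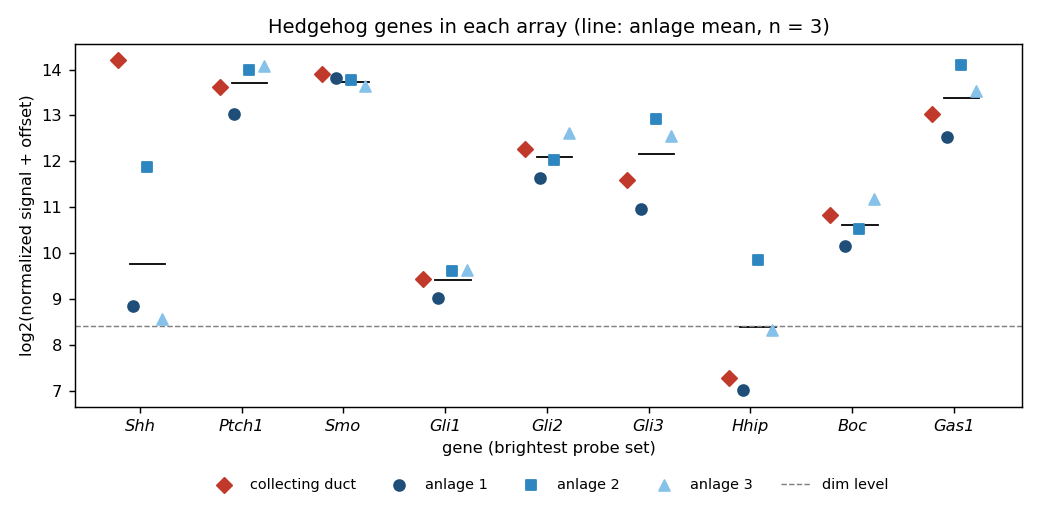
Log2(normalized signal + 109.6) of the brightest probe set of each of the 9 Hedgehog genes in the duct array (diamonds) and in anlage arrays 1 to 3, with the anlage mean as a black line and the dim level of 8.416 dashed. Shh stands at 14.20 in the duct array against 8.57 to 11.87 in the anlage, while the collecting duct values of the other genes lie inside or close to the range of the anlage arrays.

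Within the anlage, Shh was highest in the same array as most of the collecting duct markers listed, but not all. Krt8, Krt18, Krt19 and Wnt7b were not highest in anlage array 2, and Wnt7b was lowest there, at 9.98 against 10.53 in arrays 1 and 3. The mean of 17 collecting duct and ureteric stalk markers was 12.82 in the duct array, against 10.06, 11.07 and 10.04 in the anlage, and the anlage array with the most Shh, array 2, also had the highest mean of these markers. Individual markers ran from 10.15 to 15.73 in the duct array and from 7.14 to 13.62, 9.19 to 14.86 and 7.43 to 14.25 in the anlage arrays. Loop of Henle markers ran the other way, with a mean of 9.20 over 14 genes in the duct array and 12.52, 11.34 and 12.24 in the anlage arrays. Anlage array 2 also had the highest 3' to 5' signal ratio of Gapdh, a sign of shortened transcripts, at 54.08 against 10.25 and 26.02 in anlage arrays 1 and 3 and 12.05 in the duct array. The part of captured duct cells or of RNA quality in the Shh signal of array 2 was not tested.

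The genes most like Shh over the 4 arrays, by the Euclidean distance of log2 values centred on the anlage mean, were Scnn1g, Elf5, Atp10b, Sprr2f and Aqp4. Scnn1g, the gamma subunit of the epithelial sodium channel, lay nearest at a distance of 0.83, with 12.18 in the duct array and 7.14, 9.65 and 7.43 in the anlage arrays. Elf5, an ETS-family transcription factor, followed at 1.34 and Atp10b, a phospholipid-transporting ATPase, at 1.48, with Sprr2f, a small proline-rich protein of epithelia, at 1.75 and the water channel gene Aqp4 at 1.81. In each of the 5 the duct array was highest and anlage array 2 came next, as in Shh. This order follows largely from picking genes by their closeness to Shh over the same values, so it is no separate result. The 2 probe sets of Atp10b differed by 3.09 and −0.08, so its likeness too rests on 1 probe set.

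The other Hedgehog ligands were near the dim level in both structures. Ihh, the ligand best known from growing cartilage, stood at 8.76 in the duct array and 8.36, 9.10 and 9.04 in the anlage arrays, a difference of −0.07 ± 0.56 (SE). Dhh, best known from testis and peripheral nerve, had a mean below the dim level, with 7.50 in the duct array and 8.76, 8.25 and 8.78 in the anlage arrays. The duct array thus lay inside the anlage range for Ihh and below it for this probe set of Dhh, whose other probe set differed by 0.03.

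Among 7 tested genes of ligand acylation, release and carriage (of 9 listed), limma called 0 higher and 0 lower, and over all 12642 genes it also called 0 in either direction (0% called). At an unadjusted p under 0.05, 1 member was higher and 1 lower, where 149 of all genes were higher (1.18%) and 282 lower (2.23%). The member with the higher value was Scube3, a secreted protein of a family whose members help release Hedgehog from cells, at 13.73 in the duct array and 11.22, 12.74 and 11.26 in the anlage arrays. Its difference of 1.99 ± 0.75 (SE) had an adjusted p of 1 and ran from 1.57 to 2.38 over 10 other settings. Like Shh, Scube3 was highest within the anlage in array 2. Gpc4, a glypican of the cell surface, had a lower value, at 12.53 against 13.89, 13.68 and 13.91, a difference of −1.29 ± 0.42 with an adjusted p of 1. Hhat, the acyltransferase that adds palmitate to Hedgehog ligands, differed by −1.13 ± 0.74, but by 0.20 in its other probe set.

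Ptch1, the receptor and target gene, had similar values in the duct and the anlage. Its brightest probe set (1428853_at) stood at 13.62 in the duct array and at 13.04, 14.00 and 14.08 in anlage arrays 1, 2 and 3. The collecting duct value lay inside the anlage range, and the difference was −0.09 ± 0.56 (SE) from an anlage mean of 13.71 ± 0.58 (SD, n = 3). In normalized signal this is 12510 against 8311, 16320 and 17250, so the probe set was bright in every array. The sign of the Ptch1 difference turned in 3 of 10 other settings, which include the mean of all its probe sets, at 0.06. The difference ran from −0.47 with arrays scaled to a common median to 0.10 without anlage array 3. The 2 dimmer probe sets of Ptch1 differed by 0.64 (1439663_at) and −0.38 (1450824_at), in opposite directions.

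Boc and Gas1 encode co-receptors that help the ligand bind Ptch1, Boc as an immunoglobulin-family membrane protein and Gas1 as a lipid-anchored one. Boc stood at 10.84 in the duct array and 10.15, 10.53 and 11.18 in the anlage arrays, inside their range, a difference of 0.22 ± 0.61 (SE). Its second probe set (1427516_a_at) differed by −0.36, with 9.99 against 9.85, 10.43 and 10.77, again inside the range. The third (1427517_at) was dim in all 4 arrays.

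Gas1 was bright in every array, at 13.03 in the duct array and 12.53, 14.11 and 13.53 in the anlage arrays, a difference of −0.36 ± 0.68 (SE). Its second probe set (1448494_at) lay below all 3 anlage arrays, at 10.43 against 11.63, 11.82 and 11.02, a difference of −1.06. The third (1456322_at), dim on average, lay above all 3, at 9.06 against 8.02, 8.31 and 7.26, a difference of 1.20. The probe sets of Gas1 thus gave no common direction. Without anlage array 2 the difference of the brightest probe set was 0.00.

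Hhip, a membrane protein that binds and sequesters the ligand, lay mostly under the dim level and was not tested, since the mean of its brightest probe set fell under that level. That probe set (1421426_at) stood at 7.27 in the duct array, with anlage values of 7.01, 9.85 and 8.32, and anlage array 2 alone exceeded 8.416. The difference of −1.12 was −0.39 in the same probe set without anlage array 2, a value computed after the data were seen. Of the other 3 probe sets, 1437933_at and 1438083_at lay below all 3 anlage arrays, with differences of −0.66 and −0.82, while 1455277_at stood at 8.27 against 6.88, 6.86 and 9.34. In the duct array all 4 probe sets of Hhip were under the dim level, with values from 6.97 to 8.27.

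Of the receptors outside the set, Cdon, a co-receptor related to Boc, stood at 12.46 in the duct array, above 11.14, 11.98 and 11.91 in the anlage arrays, a difference of 0.79 ± 0.58 (SE), and −0.21 in its other probe set. Lrp2, the endocytic receptor megalin, which also binds Shh, stood at 9.21 against 10.39, 10.09 and 8.53, a difference of −0.46 ± 0.83. Limma called 0 of these 2 genes, and 0 at an unadjusted p under 0.05.

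Smo, the membrane protein that carries the signal into the cell, varied least of the set. It stood at 13.91 in the duct array and at 13.81, 13.77 and 13.64 in the anlage arrays, which spans 0.27 from the highest to the lowest array, where Shh spans 5.63. The duct array lay just above all 3, by 0.17 ± 0.40 (SE) over the anlage mean, but the difference was −0.20 with arrays scaled to a common median, a setting that moved the median of all genes from −0.06 to −0.24. On the deposited signals Smo lay inside the anlage range, at 14356 against 12143, 16017 and 13299, while Gli1 lay above all 3, at 643.2 against 570.6, 430.1 and 627.4. The second probe set of Smo (1427048_at) stood at 12.46 against 12.58, 12.21 and 11.84, inside the anlage range. The third (1442215_at) was dim in all 4 arrays, with 8.20 against 7.23, 6.97 and 7.57.

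Each of the 3 Gli transcription factors differed from the anlage mean by less than its SE. Gli1, the activator whose transcription depends most directly on the signal, has 1 probe set, which stood at 9.43 in the duct array and 9.01, 9.60 and 9.63 in the anlage arrays. The collecting duct value lay inside this range, with a difference of 0.02 ± 0.55 (SE), and it ran from −0.20 to 0.22 over the other settings. In normalized signal Gli1 was 578.8 in the duct array and 405.1, 665.2 and 681.2 in the anlage arrays.

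Gli2, the main activator in most tissues, stood at 12.27 in the duct array and 11.63, 12.02 and 12.62 in the anlage arrays, a difference of 0.18 ± 0.58 (SE). Its other probe set (1446086_s_at) differed by −0.01. Both lay inside the anlage range.

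Gli3, the main source of the repressor form, stood at 11.60 in the duct array and 10.96, 12.93 and 12.56 in the anlage arrays, a difference of −0.55 ± 0.85 (SE). The anlage SD of 1.05 exceeded this difference. The second probe set (1456067_at) stood at 10.85 against 10.57, 10.12 and 12.04, a difference of −0.06, and the third (1450525_at) was dim in all 4 arrays. The difference of Gli3 stayed negative over the 10 other settings, from −1.20 without anlage array 1 to −0.16 without anlage array 2. These settings include the mean of all its probe sets, at −0.36.

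**Figure D2:**
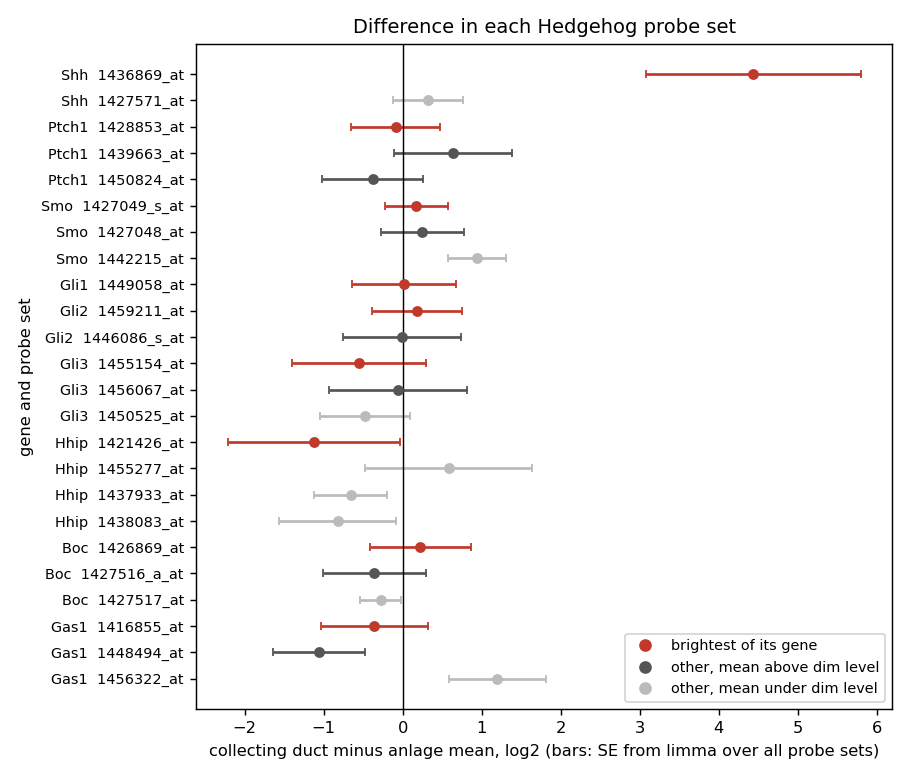
Collecting duct value minus the mean of the 3 anlage arrays, on the log2 scale, for each of the 24 probe sets of the 9 genes, with bars for the SE from limma fitted over all probe sets. The brightest Shh probe set differs by 4.44, the dim one by 0.32, and the probe sets of Gas1 run from −1.06 to 1.20.

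Over the set, 8 of 9 genes had a brightest probe set above the dim level. Their collecting duct value lay above all 3 anlage arrays for 2 genes, Shh and Smo, where 17.3% of all genes tested did so. It lay below all 3 for 0 genes, where 24.3% did so. Shh was chosen for this contrast, so its place above the anlage adds nothing to that choice, and of the other 7 only Smo lay above. The median difference of the 8 was 0.09, beside −0.06 for all genes tested. Without Shh the other 7 had a median of 0.02 and ran from −0.55 to 0.22. Of all 24 probe sets, 5 lay above all 3 anlage arrays and 5 below, and 15 had a mean above the dim level. Of those 15, 2 lay above all 3 and 2 below, beside 17.5% and 22.5% of the 22499 probe sets above the dim level. Among the 8 genes with several probe sets, 3 (Shh, Smo and Gli3) had all probe sets on the same side of the anlage mean.

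An order of the anlage arrays, picked out after the values were seen, was shared by the brightest probe sets of most members. By these probe sets anlage array 1 was the lowest of the 3 in 7 of the 8 members other than Shh (all but Smo). Of all genes tested 52.7% showed this, and Hhip, counted among the 7, was not tested. Among the dimmer probe sets of these genes with a mean above the dim level, those of Gli2 and Boc kept this order. Those of Ptch1, Gli3 and Gas1 did not, and in Ptch1 array 1 was the highest, at 9.99 against 9.03 and 8.85 (1439663_at) and 9.17 against 8.38 and 8.70 (1450824_at). In the brightest probe set of all 7 the duct array lay above anlage array 1. In 5 of them, Ptch1, Gli1, Gli3, Hhip and Gas1, it lay below arrays 2 and 3. These counts have no share of all genes beside them, so they are not read as a trait of the set. The order moved with the scaling, with 6 of 8 members on the deposited signals (40.9% of genes) and 8 of 8 with a common median (71.9% of genes). Without anlage array 1, 5 members (Gas1, Gli1, Gli3, Hhip and Ptch1) had a collecting duct value below both arrays left, where 47.5% of all genes tested did so and the median difference of all genes was −0.19. Anlage array 1 had the lowest Gapdh 3' to 5' ratio of the 3, and the part of RNA quality in this order was not tested.

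The steps between Smo and Gli were measured by 18 genes, all tested, of which limma called 0 higher and 0 lower, with 0 at an unadjusted p under 0.05. Their median difference was −0.12, with 5 values higher and 13 lower, and 8 lay below all 3 anlage arrays, where 24.3% of all genes tested did so. The kinase gene Gsk3b, whose product helps mark Gli proteins for processing, differed by −1.07 ± 0.74 (SE), the protein kinase A subunit Prkacb by −1.06 ± 0.73 and the ubiquitin ligase subunit Btrc by −0.60 ± 0.57, and in each of these 3 genes at least 1 other probe set differed by more than 1 in the other direction. Sufu, the main cytoplasmic inhibitor of Gli and chosen here for that role, stood at 11.94 against 12.09, 11.96 and 12.39, a difference of −0.21 ± 0.50. The duct value thus lay below all 3 anlage arrays, and the 3 probe sets of Sufu differed by −1.08 to −0.21.

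Of 12 listed genes of cilium transport, which Gli processing needs, 10 were tested, and limma called 0, with 0 at an unadjusted p under 0.05. Their median difference was −0.14, with 2 values higher and 8 lower. In 5 of the 10 the duct array lay below all 3 anlage arrays and in 1 above, beside 24.3% and 17.3% of all genes tested. The intraflagellar transport genes Ift172, Ift122 and Ift88 differed by −0.51 ± 0.52, −0.40 ± 0.48 and 0.34 ± 0.67 (SE). Arl13b and Rpgrip1l were not matched in the platform table.

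Genes described as Hedgehog targets in kidney or other mesenchyme had lower values in 11 and higher values in 5 of the 16 tested (of 20 listed). Limma called 0 in either direction. At an unadjusted limma p under 0.05, 0 were higher and 1 lower, beside 1.18% and 2.23% of all genes tested. Their median difference was −0.23, beside −0.06 for all genes tested. In 6 of the 16 the duct array lay below all 3 anlage arrays and in 1 above, beside 24.3% and 17.3% of all genes tested. The lower one was Ccnd1, which encodes the cell cycle protein cyclin D1, at 14.23 in the duct array and 15.77, 15.14 and 15.74 in the anlage arrays, a difference of −1.32 ± 0.39 (SE) with an adjusted p of 1. Its probe sets all pointed the same way, from −1.51 to −0.81. Ccnd2, for cyclin D2, differed by 1.48 ± 1.32, with anlage values from 12.27 to 16.06 on both sides of its collecting duct value of 15.82.

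Foxf1, a forkhead factor of gut and ureter mesenchyme, stood at 8.88 in the duct array and at 9.24, 9.10 and 11.18 in anlage arrays 1, 2 and 3. Tbx18, a factor of ureter mesenchyme that was picked out after its values were seen, stood at 9.97 against 7.84, 9.73 and 13.92. In both genes anlage array 3 stood far above the other anlage arrays. Smooth muscle markers did likewise, with a mean over 6 genes of 12.66 in anlage array 3 and 9.57 and 9.85 in arrays 1 and 2, beside 9.27 in the duct array. Actg2 and Myh11, contractile genes of smooth muscle, reached 13.35 and 13.13 in array 3 against 9.12 or less in each other array. Des, the muscle filament gene desmin, did not follow, at 9.18 in array 3, 9.97 and 9.41 in arrays 1 and 2 and 9.32 in the duct array.

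Ptch1 and Gli1, the usual readouts of the pathway, had close values in anlage arrays 2 and 3 by their brightest probe sets. From array 1 to array 2 they rose by 0.96 and 0.59. From anlage array 2 to array 3 Ptch1 and Gli1 differed by 0.08 and 0.03. Shh, Smo, Gli3 and Gas1 differed by −3.29, −0.13, −0.37 and −0.58 over this step. The dimmer Ptch1 probe sets went from 9.03 to 8.85 (1439663_at) and from 8.38 to 8.70 (1450824_at). The brightest Hhip probe set differed by −1.53, but the other 3 were higher in array 3, at 9.34 against 6.86 (1455277_at), 8.87 against 7.05 (1438083_at) and 8.14 against 7.92 (1437933_at). Gli2 and Boc were higher in array 3, by 0.59 and 0.65. With 1 array on each side these steps have no replicate check.

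**Figure D3:**
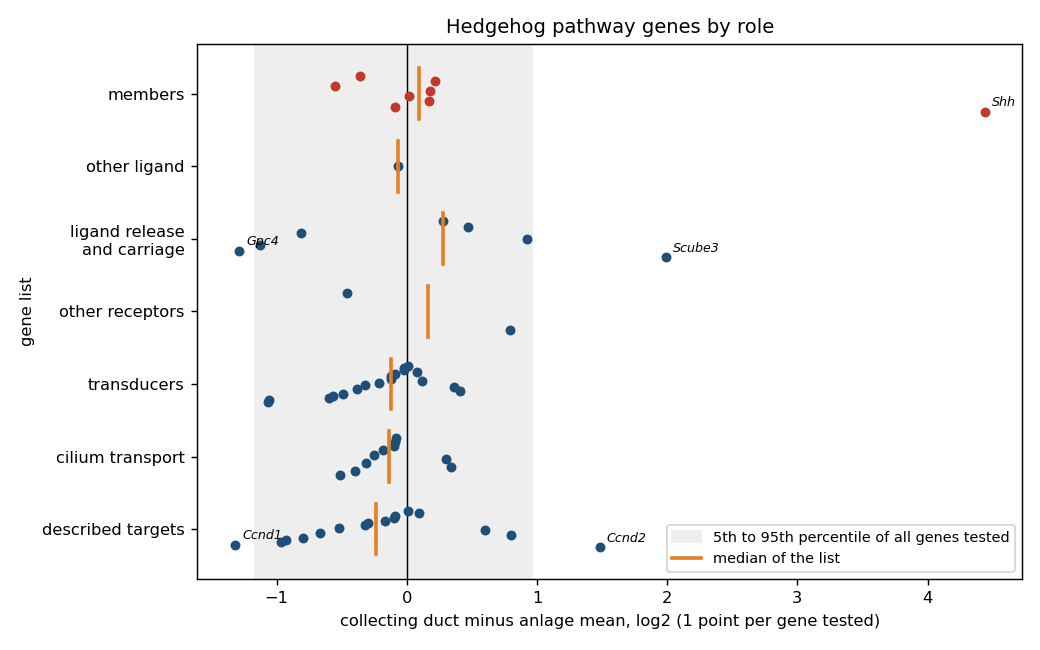
Collecting duct minus anlage mean on the log2 scale for each tested gene of the Hedgehog set and of 6 further lists by role, with list medians as orange lines and the 5th to 95th percentile of all genes tested in grey. Shh lies at 4.44 and Scube3 at 1.99, while the medians of the lists run from −0.23 to 0.28.

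Across the 6 lists together, 54 of 64 genes were tested. Limma called 0 higher and 0 lower over all genes tested. At an unadjusted limma p under 0.05, 1 was higher and 2 lower, beside 1.18% and 2.23% of all genes tested. Of the 54, 17 had a higher and 37 a lower value in the duct array. Their median difference was −0.12, beside −0.06 for all genes tested. Counts of higher and lower values, here and in each list, have no share of all genes beside them. In 11.1% of them (6 genes) the value in the duct exceeded every anlage value, and in 40.7% (22 genes) it was under every one, beside 17.3% and 24.3% of all genes tested.

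Markers of the cells that could have been caught beside each structure were as follows. These lists were chosen with earlier results of these data known, so their counts are no separate check of what each array held. All 17 collecting duct markers had a higher value in the duct array than the anlage mean, led by Scnn1g and Elf5. Of these, 15 lay above all 3 anlage arrays, where 17.3% of all genes tested did so. A lower value than the anlage mean was found in 13 of 14 loop markers, led by the potassium channel Kcnj1 (−5.52 ± 1.05, SE) and Umod (−5.20 ± 1.18). Markers of interstitial stroma, the known site of much Hedgehog response, gave signal in all 4 arrays, with a mean over 15 genes of 12.42 in the duct array and 12.21, 12.20 and 13.43 in the anlage arrays. Of these 15 genes 7 had a higher and 8 a lower value in the duct array. Lum had the largest difference of the list, −2.03 ± 2.28 (SE), at 8.92 in the duct array and 8.12, 10.10 and 14.66 in the anlage arrays. Like the mean of the list, it was highest in anlage array 3. Pdgfrb, a receptor of pericytes and stroma, differed by −1.48 ± 0.51. The part of stromal RNA in the Ptch1, Gli and Gas1 signals was not tested.

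In the duct array 6 of 6 tested endothelial genes had values under the anlage mean, with a list mean of 8.70 against 9.68, 10.46 and 10.38. Of these, 4 lay below all 3 anlage arrays, where 24.3% of all genes tested did so. The vascular receptors Tek and Kdr differed by −2.57 ± 0.78 and −2.02 ± 0.73 (SE). Of 7 tested cap mesenchyme and early nephron genes 2 were higher and 5 lower in value, led by Lhx1 (−1.29 ± 0.85, but 0.33 in its other probe set) and Osr1 (−1.01 ± 0.67), transcription factors of early nephrons and their precursors. Of 6 ureteric tip genes 3 were higher and 3 lower in value, the organic anion transporter Slco4c1 by 3.72 ± 0.75 (−0.23 in its other probe set) and the ETS factor Etv5 by −1.39 ± 0.95 (up to 0.33 in its other probe sets). Urothelium genes were near the dim level, with means of 8.64 against 8.50, 8.62 and 9.29, Trp63, a factor of basal epithelium, differing by −1.12 ± 0.95 and the uroplakin Upk3b by 1.04 ± 0.50. Limma called 0 genes of these 8 marker lists over all genes tested. At an unadjusted limma p under 0.05, 12 of 17 collecting duct genes were higher and 12 of 14 loop genes lower. Also under it were 1 of 6 tip genes (higher), 1 of 15 stroma genes (lower) and 2 of 6 endothelial genes (lower). Of all genes tested 1.18% were higher and 2.23% lower at this p.

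**Figure D4:**
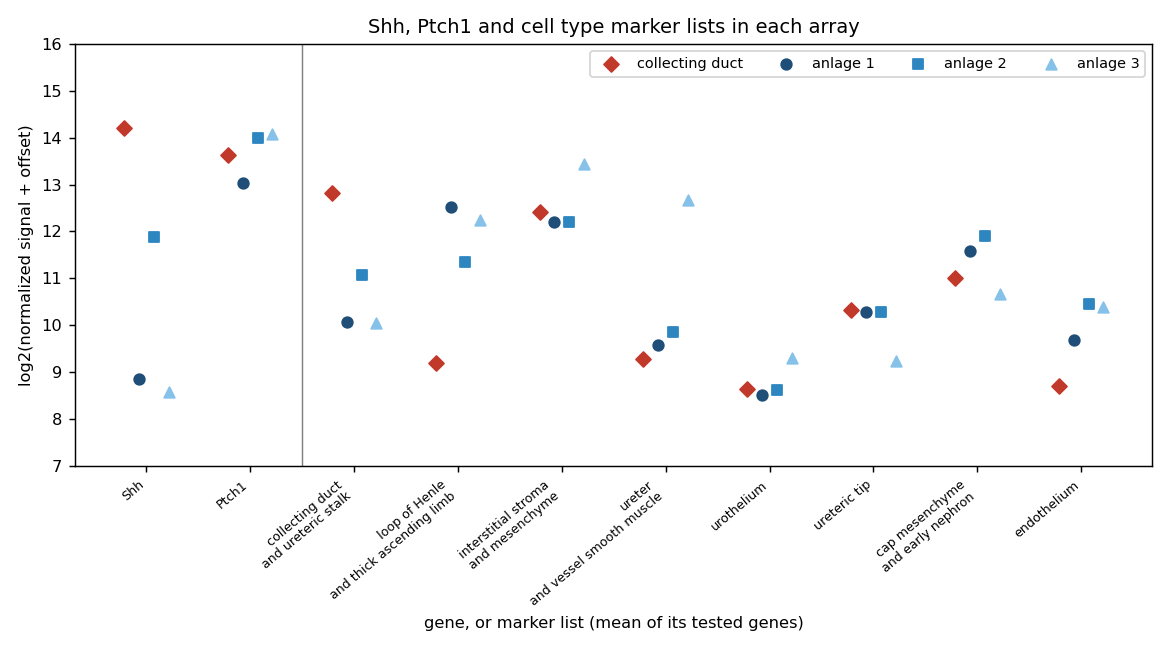
Log2(normalized signal + 109.6) of Shh and Ptch1 (left of the line) and the mean of the tested genes of each of 8 marker lists (right) in each of the 4 arrays. Shh and the mean of the collecting duct markers are highest in the duct array and next in anlage array 2. The mean of the smooth muscle markers stands at 12.66 in anlage array 3 and at 9.27 to 9.85 elsewhere.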

How the data were processed

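The authors deposited linear intensity values per probe set, computed in GCOS per the submitters' processing notes (version not given in the sources used here). Each array's mean after trimming 2% at each end was 1500.01, while the deposited medians ran from 206.9 to 526.5. Detection calls and scanner files were not used here.

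The 4 arrays were quantile normalized and log2(signal + 109.6) was taken, the offset being the 25th percentile, which understates folds of dim genes. Of 45101 probe sets, 64 controls were left out, 34945 had 1 gene symbol, and 932 with several and 9160 with none were not tested. The brightest probe set stood for a gene, and genes with a mean under 8.416, the 40th percentile, were not tested, which left 12642. The collecting duct array was set against the 3 anlage arrays with limma 3.58.1 in R 4.3.3 (lmFit, eBayes with intensity trend, two-sided, Benjamini-Hochberg, threshold 0.05). The 2 residual degrees of freedom came from the anlage arrays, and the single array of the duct was taken to have their spread. With 1 array against 3 the smallest p of an exact permutation test is 0.25, so it was not used. The number of arrays limits the precision. The fit was tested on simulated data.

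The members and lists were chosen with earlier results of these data known. Named were all members, up to 3 tested genes of each pathway list and up to 2 of each marker list by absolute difference, and the 5 genes nearest to Shh. Normalization, offset, dim filter, probe set rule, prior and each anlage array left out were varied. Platform gene symbols follow the table given for the array, and promoters are from RefSeq (GRCm38.p6). No coordinates are given for probe sets, since no build was named for the array.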

Additional observations from a re-analysis of the deposited data

How the results depend on the processing

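Over 11 other settings limma called 0 genes in 10, and 3 higher and 11 lower without anlage array 2, a fit with a spread from 2 arrays, so these counts ran from 0 to 3 and from 0 to 11 with an array left out. Genes at an unadjusted p under 0.05, 431 in all, were 192 without anlage array 3, 1401 without anlage array 1 and 295 with arrays scaled to a common median. Other Hedgehog pathway genes called stayed at 0 in both directions in every setting. Since no gene of any kind was called in the main fit or in 10 of the 11 others, these zeros say little about the pathway. The difference of Shh was 2.38 when its probe sets were averaged and 0.32 in the dim probe set alone, and 3.80 to 5.21 with an anlage array left out. Members above all anlage arrays numbered 1 with a common median (Shh) and 1 when every tested probe set of a gene had to lie there (Shh), and 2 to 4 with an array left out, reaching 4 without anlage array 3, where 22.8% of all genes tested lay above. Members below all numbered 0 to 5, reaching 5 without anlage array 1, where 47.5% of all genes tested lay below. The difference of Smo reversed to −0.20 with a common median. The causes were not tested. No paired analysis was possible because the groups share only replicate number 3.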
